A study of Mus musculus with 4 samples.

Results

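The genes described here are 10 receptors and partners through which macrophages take up dying cells and modified molecules: Mertk, Axl, Gas6, Stab1, Timd4, Cd36, Msr1, Mrc1, Cd163 and Folr2. The rule is a list of gene names and uses no measured value, and all 10 were found among the 28692 genes of the table. Their transcripts were followed over cells of the colon by the levels of Ly6c2, C1qa and Folr2, and over mice given diesel exhaust particles (DEP) or vehicle.

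Single-cell RNA was measured in cells of the colon lamina propria, the layer under the gut epithelium, from 4 male C57/Bl6N mice of unstated age. DEP 11 and DEP 13 were gavaged with 12 µg DEP in 200 µL phosphate-buffered saline (PBS), 5 days per week over roughly 6 months, and PBS 2 and PBS 3 had received PBS alone by the same route. Cells carrying CD11b together with Ly6C or CD64 were sorted in a single session per the methods, a gate for monocytes and macrophages, and each mouse filled 1 well of a 10x Genomics 3' v2 run, so that each library is 1 animal. The wild-type mice carry no transgene, and with 2 animals per arm an exposure effect rests on a very small number of replicates.

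Dying cells show phosphatidylserine on their surface, which macrophages recognise either directly (Stab1, Timd4) or through a bridging protein such as Gas6, the ligand of the tyrosine kinase receptors Mertk and Axl. Scavenger receptors (Cd36, Msr1, Cd163, and the mannose receptor Mrc1) bind oxidised lipids, polyanions, haemoglobin complexes or glycans. In the gut, Ly6C-bearing monocytes arrive from blood and mature into macrophages that make complement C1q, and Folr2, a folate receptor, marks a group of resident macrophages in several tissues.

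Of 6954 barcodes, 4771 held at least 1000 unique molecular identifiers (UMIs, 1 per captured transcript), and 202 of these carried at least 3 distinct markers of T, B or plasma cells and were set aside. The 4569 analysed barcodes numbered 1181 (DEP 11), 631 (DEP 13), 1254 (PBS 2) and 1503 (PBS 3), with median depths of 5245, 5769, 7098.5 and 5307 UMIs. Of the genes that mark macrophages and monocytes, Csf1r had a UMI in 84.0% to 93.6% of each mouse's analysed barcodes, Cd68 in 84.3% to 89.9%, Adgre1 in 71.5% to 78.5% and Fcgr1, which codes for CD64, in 56.1% to 74.4%. Itgam, which codes for the CD11b that every sorted cell carried, had a UMI in 36.4% to 47.8%. Barcodes were placed by limits that left 33.3% of them above for Ly6c2 and for C1qa (over 1.26 and over 52.9 UMIs per 10000): 1272 in the Ly6c2 state, 1272 in the C1qa state, 251 over both limits and 1774 over neither, with median depths of 5189.5, 7740.5, 6951 and 5194.5 UMIs. The states are ranges of 2 genes and not cell types, and since 59.0% of the analysed barcodes had no Ly6c2 UMI, a barcode without Ly6c2 is not shown to lack the transcript. Levels are UMIs summed over the barcodes of a mouse, per 1000000 of all their UMIs (CPM), and a UMI counts a molecule once whatever the length of its transcript. The table holds far more barcodes than the cells the methods count, also under the filter of those methods, which keeps 4623. Whether the methods describe the same run was not tested. The barcodes of the table are numbered in place of their letters, so those shared between libraries could not be counted. The lymphoid barcodes (median 8481.5 UMIs) served as background, although they also held C1qa at 2139 CPM, against 4344 CPM in the analysed barcodes.

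The sequences below are the 250 bases before the start of the members that differed with Folr2 inside the C1qa state, and of Folr2 itself, shown because these genes moved together. They come from RefSeq (GRCm38.p6), which had an entry for 9 of the 10 members (all but Msr1), and Folr2 has 2 starts. Starts are those of RefSeq and can differ from the gene starts of GENCODE given with the members below: that of Cd36 lies 52905 bases inside the GENCODE gene, those of Folr2 4 and 11863 bases and that of Mrc1 22 bases. The start of Gas6 lies outside its GENCODE gene (−45 bases), and that of Stab1 is the same in both. Capitals mark GAGGAA, the core bound by the macrophage factor PU.1, or TGCTGA, a core bound by MAF factors, on either strand (TTCCTC and TCAGCA).
Gas6 promoter, chr8:13494536-13494785, minus strand: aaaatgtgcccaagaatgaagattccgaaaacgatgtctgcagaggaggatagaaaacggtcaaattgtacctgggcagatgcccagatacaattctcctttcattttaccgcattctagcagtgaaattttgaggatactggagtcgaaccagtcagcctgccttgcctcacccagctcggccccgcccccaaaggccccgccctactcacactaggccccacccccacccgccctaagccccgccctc
Cd36 promoter, chr5:17835897-17836146, minus strand: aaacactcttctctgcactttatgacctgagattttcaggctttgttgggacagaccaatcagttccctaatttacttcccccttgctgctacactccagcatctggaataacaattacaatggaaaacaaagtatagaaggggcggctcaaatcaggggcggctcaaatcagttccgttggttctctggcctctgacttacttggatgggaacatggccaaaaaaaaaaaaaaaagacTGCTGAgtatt
Stab1 promoter, chr14:31168642-31168891, minus strand: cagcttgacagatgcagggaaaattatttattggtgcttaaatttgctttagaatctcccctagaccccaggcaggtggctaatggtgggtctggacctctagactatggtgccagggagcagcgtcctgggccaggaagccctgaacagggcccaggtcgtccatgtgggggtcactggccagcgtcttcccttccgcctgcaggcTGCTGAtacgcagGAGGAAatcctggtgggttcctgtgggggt
Mrc1 promoter, chr2:14229164-14229413, plus strand: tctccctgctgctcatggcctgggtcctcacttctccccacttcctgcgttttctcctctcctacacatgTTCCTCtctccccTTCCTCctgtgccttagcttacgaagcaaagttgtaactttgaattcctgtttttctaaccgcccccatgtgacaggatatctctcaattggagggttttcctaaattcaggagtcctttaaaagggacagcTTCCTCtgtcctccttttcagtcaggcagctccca
Folr2 promoter, chr7:101857191-101857440, minus strand: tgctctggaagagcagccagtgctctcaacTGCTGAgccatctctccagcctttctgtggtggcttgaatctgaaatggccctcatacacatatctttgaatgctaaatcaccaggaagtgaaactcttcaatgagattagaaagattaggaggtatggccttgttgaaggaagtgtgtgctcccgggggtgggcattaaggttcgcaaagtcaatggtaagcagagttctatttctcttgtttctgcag
Folr2 promoter, chr7:101845332-101845581, minus strand: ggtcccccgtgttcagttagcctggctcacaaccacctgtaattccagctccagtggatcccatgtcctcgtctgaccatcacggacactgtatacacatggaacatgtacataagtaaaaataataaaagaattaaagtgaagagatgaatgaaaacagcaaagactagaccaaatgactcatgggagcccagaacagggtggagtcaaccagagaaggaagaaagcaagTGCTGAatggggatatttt

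The PU.1 letters were found in 3 of the 9 members with an entry (Axl, Stab1 and Mrc1, which held 3 copies) and in 23.3% of 32851 promoters of the same length. The MAF letters were found in 4 of the 9 (Cd36, Stab1, Timd4 and both starts of Folr2) and in 16.1% of all promoters. Gas6, Mertk and Cd163 had neither. These are matches of letters in a window and not binding sites.

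Between the states, most members were higher where C1qa was high: Gas6, Folr2, Stab1, Mertk, Cd36, Mrc1 and Axl all rose from the Ly6c2 to the C1qa state, while Msr1 did not pass the test. Of the 10 members, 8 passed the filter on low values (over 1 CPM in at least 2 sums and a UMI in at least 5% of the barcodes of both states pooled), and 7 of them were higher at a false discovery rate (FDR) of 5% in edgeR's quasi-likelihood test with the mouse as a block (n = 4 mice). In the same test 1176 of 6671 genes were higher, which is 17.6%, and 1296 were lower (19.4%, and 37.1% in either direction). Mertk, Gas6, Cd36 and Folr2 had a UMI in 2.36%, 3.46%, 4.48% and 4.40% of the Ly6c2-state barcodes and so passed the filter through the C1qa state, where they are high, and the count of 7 is a description and no support. Axl, Stab1, Msr1 and Mrc1 were over 5% in each state.

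**Figure D1:**
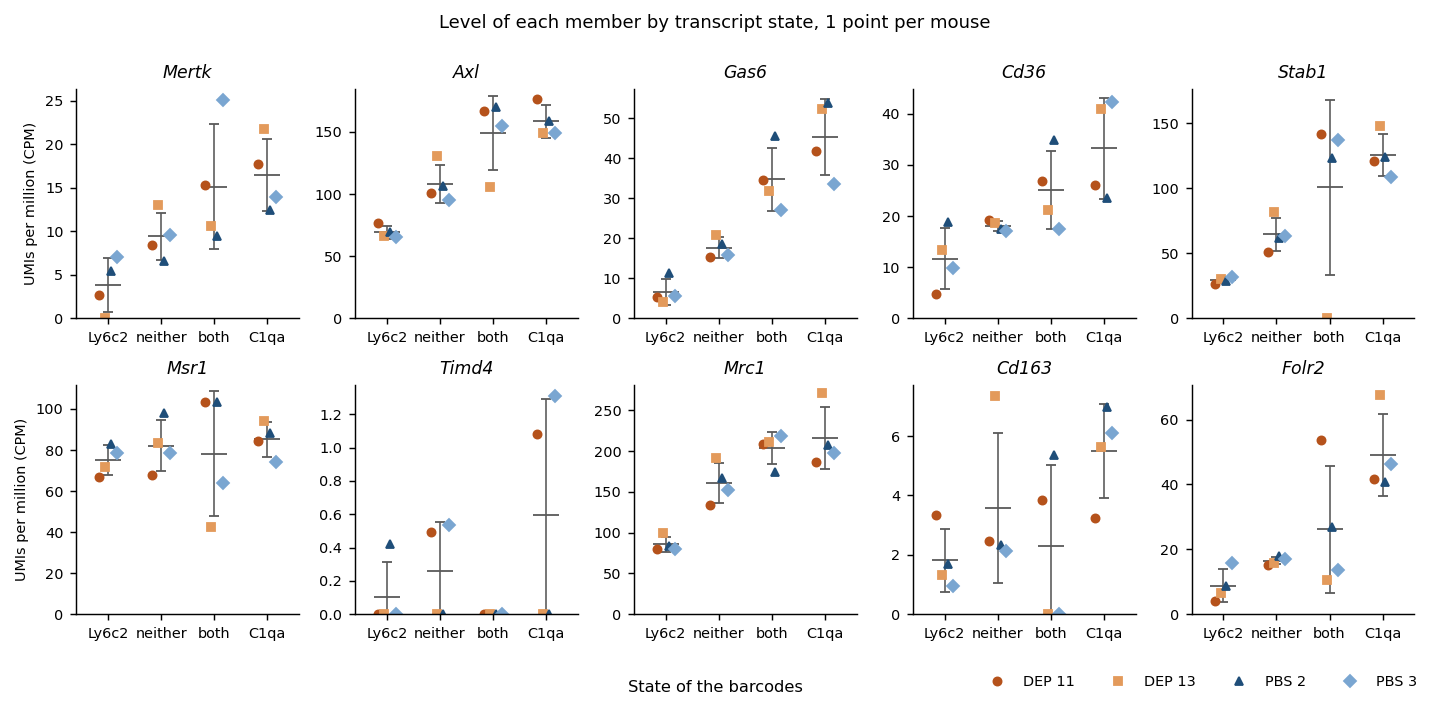
Level of each member in CPM (vertical axis, from 0) in barcodes of the Ly6c2 state, of neither state, of both and of the C1qa state. Points are the 4 mice, and the bar and whiskers are their mean ± SD. Gas6, Stab1, Mrc1, Axl, Mertk, Cd36 and Folr2 lie higher in the C1qa state in each mouse, while Msr1 does not separate the states and Timd4 stays at or below 1.31 CPM in both of those states.

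Among the receptors that act through a bridging protein, Mertk (ENSMUSG00000014361, chr2:128698956-128802894, mm10, plus strand) codes for the kinase that resident macrophages use to engulf dying cells. Taking DEP 11, DEP 13, PBS 2 and PBS 3 in this order throughout, its level was 2.67, 0, 5.45 and 7.02 CPM in the Ly6c2 state and 17.7, 21.7, 12.4 and 13.9 CPM in the C1qa state. The states did not overlap, and the log2 fold change was 1.74 ± 0.35 (SE; edgeR, adjusted p = 0.00106). These are few molecules, 32 UMIs in the Ly6c2 state and 156 in the C1qa state, and the Ly6c2 state lay near the level of the lymphoid barcodes (1.97 to 8.06 CPM). Over quintiles of the C1qa level, Mertk went from 3.04 CPM in the lowest to 16.2 CPM in the highest, all mice pooled.

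Axl (ENSMUSG00000002602, chr7:25757273-25788705, minus strand), the sister kinase that binds Gas6 most tightly and is often induced by interferon, had 76.8, 66.4, 69.2 and 65.0 CPM in the Ly6c2 state of DEP 11, DEP 13, PBS 2 and PBS 3, and 176.7, 148.9, 158.8 and 149.4 CPM in the C1qa state. All mice were higher in the C1qa state and the spread within a state was small, with a log2 fold change of 1.23 (± 0.08 SE, adjusted p = 1.55e-08). The lymphoid barcodes held 53.6 to 66.7 CPM, and the Ly6c2 state was above them in 3 of 4 mice. Over the C1qa quintiles the largest step was from quintile 2 to quintile 3, from 61.3 to 126 CPM, and quintile 5 held 168 CPM. In DEP 13 quintile 3 was the highest, at 166 CPM, and quintile 5 held 141 CPM.

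Gas6 (ENSMUSG00000031451, chr8:13465374-13494490, minus strand) codes for the bridge between phosphatidylserine and both kinases. It held 5.34, 3.98, 11.3 and 5.61 CPM in the Ly6c2 state and 41.9, 52.3, 53.8 and 33.5 CPM in the C1qa state. The states were far apart, and the log2 fold change was 2.64 (SE 0.19, adjusted p = 5.68e-08). The Ly6c2 state was below the lymphoid barcodes in every mouse (6.05 to 22.7 CPM) and above the lowest C1qa quintile in every mouse (2.40 to 4.94 CPM), and how much of its Gas6 is free RNA was not tested. From the lowest to the highest C1qa quintile the pooled level rose 15.5-fold, from 3.04 to 47.0 CPM.

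Receptor and ligand were also looked for in the same barcode. In the C1qa state, Gas6 had a UMI in 25.0% of barcodes with an Axl UMI (median 8638 UMIs) and 23.6% of those without (median 5618), and in 26.4% of barcodes with a Mertk UMI (median 8504) and 24.3% of those without (median 7609.5). No test was made, since deeper barcodes hold more of every gene.

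Stab1 and Timd4 code for receptors that bind phosphatidylserine themselves. Stab1 (ENSMUSG00000042286, chr14:31139013-31168641, minus strand), also a clearance receptor for modified lipoproteins, had 26.0, 30.5, 28.9 and 31.3 CPM in the Ly6c2 state and 120.7, 148, 124 and 109 CPM in the C1qa state of DEP 11, DEP 13, PBS 2 and PBS 3. The states were far apart in every mouse (log2 fold change 2.10, SE 0.105, adjusted p = 2.05e-09). Pooled over the mice, its level was higher in each quintile of C1qa than in the one before, from 26.7 CPM in the lowest through 71.4 and 88.8 CPM to 143 CPM in the highest. The background was high for this gene in PBS 2, whose lymphoid barcodes held 111 CPM, and was 23.6 to 42.3 CPM in the other mice.

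Timd4 (ENSMUSG00000055546, chr11:46810800-46844332, plus strand) marks the long-lived macrophages of many tissues, and was almost not found. The 4569 analysed barcodes held 10 Timd4 UMIs, in 8 barcodes, as 4, 0, 1 and 5 UMIs per mouse. The 0 of 631 barcodes in DEP 13 allows a share with a UMI of up to 0.475%, a limit on counting error alone. Of the 10 UMIs, 6 were in the C1qa state and 1 in the Ly6c2 state, and the lymphoid barcodes held 1 in 202, so no difference could be detected at this depth and the gene did not pass the filter.

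Cd36 and Msr1 are scavenger receptors for oxidised lipoproteins. Cd36 (ENSMUSG00000002944, chr5:17781690-17888801, minus strand), which also carries fatty acids, had 4.67, 13.3, 18.9 and 9.82 CPM in the Ly6c2 state and 26.0, 41.0, 23.5 and 42.3 CPM in the C1qa state. Each mouse was higher in the C1qa state, the closest being PBS 2, and the log2 fold change was 1.41 (SE 0.27, adjusted p = 0.000819), which was 2.11 without PBS 2 and 1.10 without PBS 3. The lymphoid barcodes held 5.21 to 14.4 CPM.

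Msr1 (ENSMUSG00000025044, chr8:39581685-39642673, minus strand), scavenger receptor A, had 66.8, 71.7, 83.0 and 78.6 CPM in the Ly6c2 state against 84.2, 94.1, 88.2 and 74.1 CPM in the C1qa state. The states overlapped, PBS 3 was lower in the C1qa state, and the log2 fold change of 0.19 (± 0.10 SE, adjusted p = 0.157) did not pass. It passed under 3 of the alternatives tried, with log2 fold changes of 0.28 to 0.33, when barcodes from 500 UMIs entered, when lymphoid barcodes were kept, or when the states were cut at the median. In each mouse but PBS 2 the Ly6c2 state exceeded the lymphoid barcodes (45.3, 34.3, 90.7 and 30.2 CPM).

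**Figure D2:**
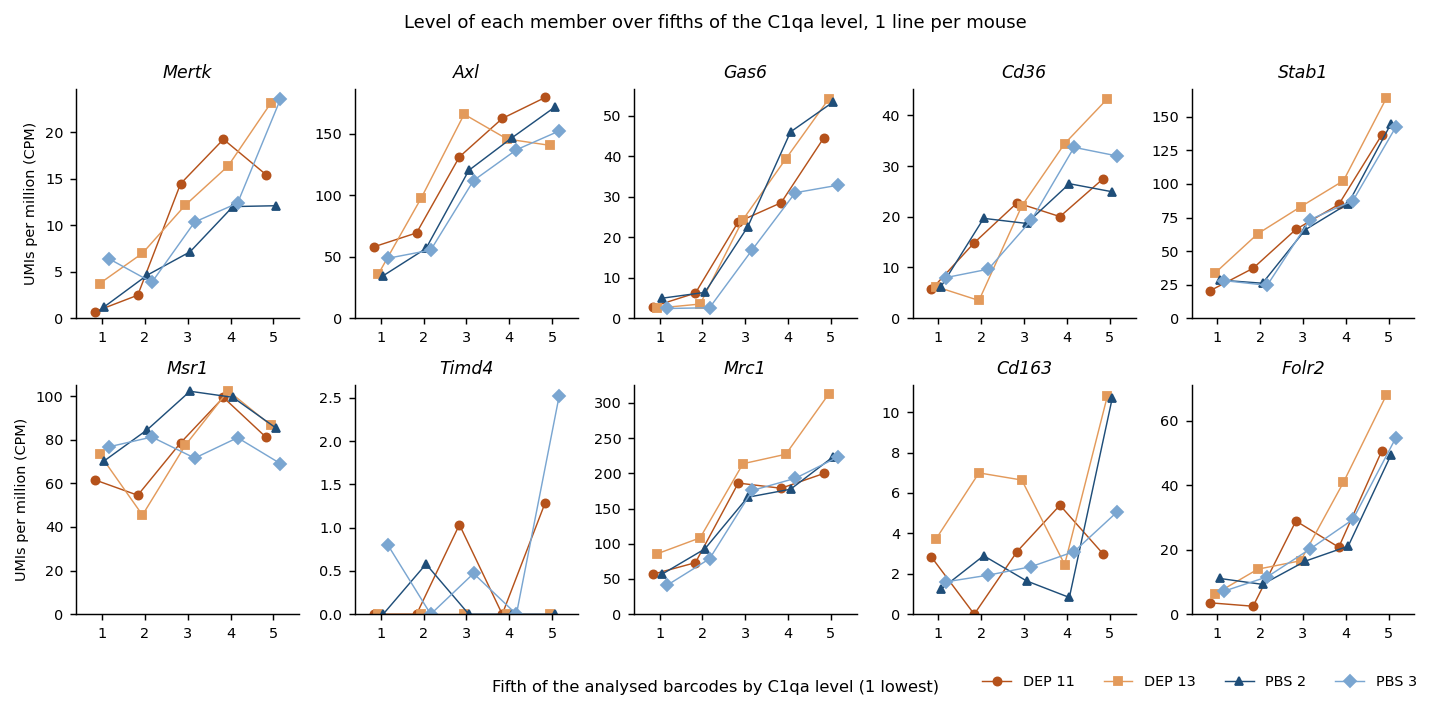
Level of each member in CPM (vertical axis, from 0) over quintiles of the analysed barcodes ordered by C1qa level (horizontal axis, 1 lowest). Each line is 1 mouse. Gas6, Stab1, Mrc1 and Folr2 end highest in quintile 5 in all 4 mice, Axl does so in 3 of 4, and Msr1 shows no steady climb.

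Mrc1 and Cd163 code for receptors of the wound-healing type of macrophage. Mrc1 (ENSMUSG00000026712, chr2:14229392-14332057, plus strand), the mannose receptor, had 79.5, 99.6, 83.4 and 80.0 CPM in the Ly6c2 state and 187, 272, 208 and 198 CPM in the C1qa state. All mice were higher in the C1qa state, by a log2 fold change of 1.36 (± 0.07 SE, adjusted p = 4.28e-09), and DEP 13 was the highest mouse in both. The Ly6c2 state again lay within the lymphoid range (63.0 to 113 CPM). Thinned to 1000 UMIs per barcode, Mrc1 was found in 18.0% of C1qa-state, 6.45% of Ly6c2-state and 7.92% of lymphoid barcodes, against 69.4%, 27.0% and 43.6% before thinning.

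Cd163 (ENSMUSG00000008845, chr6:124304656-124330527, plus strand), the haemoglobin-haptoglobin receptor, had 107 UMIs in 71 analysed barcodes and failed the filter on low values. Its levels were 3.34, 1.33, 1.68 and 0.936 CPM in the Ly6c2 state and 3.25, 5.63, 6.98 and 6.10 CPM in the C1qa state. DEP 11 was level between the states while the other mice were higher in the C1qa state, and without the detection filter the log2 fold change was 1.62 (SE 0.45, edgeR adjusted p = 0.00535), in a fit that called 12.7% of 11812 genes higher. No Cd163 UMI was seen in the 202 lymphoid barcodes, which allows a share of up to 1.49%. All 33 barcodes of the C1qa state with a Cd163 UMI also had an Mrc1 UMI, which 69.4% of that state had.

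Folr2 (ENSMUSG00000032725, chr7:101839988-101857194, minus strand) had 4.01, 6.64, 8.80 and 15.9 CPM in the Ly6c2 state and 41.6, 67.6, 40.9 and 46.2 CPM in the C1qa state. The states were apart in every mouse (log2 fold change 2.30, SE 0.22, adjusted p = 1.23e-06), and the Ly6c2 state was at or under the lymphoid range of 12.1 to 28.8 CPM in all but PBS 3, which lay inside it. A Folr2 UMI was found in 15.9% of C1qa-state barcodes (13.4% to 21.9% per mouse), 4.40% of Ly6c2-state barcodes and 12.9% of lymphoid barcodes. Thinned to 1000 UMIs these shares were 3.77%, 0.472% and 1.49%, so a single Folr2 UMI does not by itself mark a cell that expresses it.

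Barcodes were also ordered by Ly6c2 alone. From barcodes with no Ly6c2 UMI to those over the limit, the pooled level went from 31.3 to 13.8 CPM for Gas6, 94.0 to 50.3 for Stab1, 186 to 108 for Mrc1, 131 to 89.3 for Axl, 30.3 to 14.1 for Folr2, 25.4 to 15.5 for Cd36, 12.4 to 7.05 for Mertk and 84.1 to 79.5 CPM for Msr1. The class between, with a Ly6c2 UMI but under the limit, was of deep barcodes (349, median 10297 UMIs) and lay close to the first for most members, with Gas6 at 32.6 CPM and Folr2 at 34.6 CPM. By mouse Folr2 went both ways, at 69.3, 48.6, 27.2 and 17.1 CPM against 22.9, 36.0, 33.6 and 30.2 CPM. A single DEP 11 barcode of that class held 29 Folr2 UMIs. These values are a description, with no test. Barcodes over both limits held 36.7 CPM of Gas6 and 198 CPM of Mrc1, against 45.8 and 208 CPM in the C1qa state, and DEP 13 gave 15 such barcodes with no Stab1 UMI among them.

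Members were counted per barcode. Barcodes of the Ly6c2 state held a mean of 1.10 of the 10 members, those of neither state 1.67, those over both limits 2.78 and those of the C1qa state 2.93, and thinned to 1000 UMIs the means were 0.225, 0.437, 0.657 and 0.653, against 0.302 in lymphoid barcodes. At least 5 members were found in 17.1% of C1qa-state and 1.10% of Ly6c2-state barcodes. No barcode had all 10, and the most found was 9, in PBS 2.

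A further comparison asked which members go with Folr2. Within the C1qa state, 202 barcodes with at least 1 Folr2 UMI (51, 37, 71 and 43 in DEP 11, DEP 13, PBS 2 and PBS 3) were set against the 1070 without. Gas6, Cd36, Stab1 and Mrc1 were higher in the Folr2 barcodes, 4 of the 7 other members that passed the filter, where 57 of 7232 genes were higher (0.788%) and 113 were lower (1.56%, and 2.35% in either direction). The depths differed (medians of 8703.5 and 7505.5 UMIs), and with 1 UMI as the limit some Folr2 barcodes are background, as above. C1qa itself was level at 6993 and 7040 CPM.

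Gas6 was at 95.6, 102, 105 and 90.1 CPM in the Folr2 barcodes of DEP 11, DEP 13, PBS 2 and PBS 3, and at 32.1, 36.2, 39.2 and 24.7 CPM in the others. The groups were well apart, at 1.47 ± 0.16 (SE) on the log2 scale (edgeR adjusted p = 2.23e-07). Cd36 was at 56.0, 85.6, 49.1 and 103 CPM against 20.5, 26.6, 16.3 and 32.8 CPM, again without overlap (log2 fold change 1.51, SE 0.18, adjusted p = 9.72e-07).

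Stab1 was at 221.5, 207, 190.5 and 219 CPM against 102, 129, 105 and 91.7 CPM, a log2 fold change of 0.89 (± 0.11 SE, adjusted p = 1.50e-06). Mrc1 was at 277.5, 372, 264 and 383 CPM against 170.2, 239.6, 191.9 and 168.8 CPM, a log2 fold change of 0.64 (± 0.10 SE, adjusted p = 7.66e-05), and it was the one of the 4 that missed the threshold without the mouse as a block (adjusted p = 0.170). All 4 genes were higher in the Folr2 barcodes of each of the 4 mice.

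The other members tested did not pass. Mertk had a log2 fold change of 0.67 (± 0.27 SE, adjusted p = 0.298) and Msr1 of 0.43 (SE 0.15, adjusted p = 0.159), each higher in 4 of 4 mice. Axl went the other way, at −0.33 (SE 0.11, adjusted p = 0.177), and was lower in 3 of 4 mice, with 133 against 185 CPM in DEP 11, 161 against 145 in DEP 13, 126 against 168 in PBS 2 and 148 against 150 CPM in PBS 3. Without the detection filter Axl passed, at −0.38 (adjusted p = 0.0351), and so did Cd163 at 2.07 (SE 0.44, adjusted p = 0.000252), from 17 of 202 barcodes with a UMI against 16 of 1070, in a fit that called 0.603% of 12106 genes higher.

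**Figure D3:**
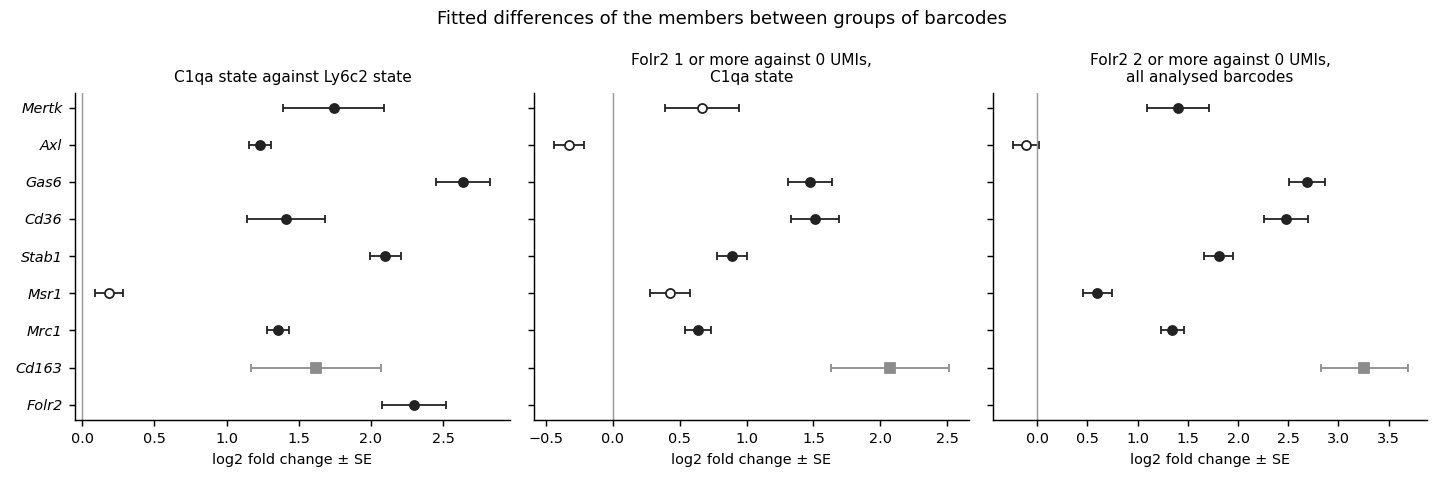
Fitted log2 fold change ± SE of each member (horizontal axis) between the C1qa and Ly6c2 states, between barcodes with and without Folr2 in the C1qa state, and between barcodes with at least 2 and with 0 Folr2 UMIs. Filled symbols are under an FDR of 5%, and grey squares are values without the detection filter. Axl lies at 1.23 in the first panel and at −0.33 and −0.11 in the other panels. Timd4 is left out for its counts.

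A stricter class was added after seeing the data: all 127 analysed barcodes with at least 2 Folr2 UMIs (33, 22, 40 and 32 per mouse), against the 4163 with 0. Of these 127, 81 lay in the C1qa state (63.8%), 30 in neither, 10 in both and 6 in the Ly6c2 state. Of 7 other members tested, 6 were higher, beside 223 of 6498 genes (3.43%), with 356 genes lower (5.48%, and 8.91% in either direction). These Folr2 barcodes were also richer in C1qa (6504 against 4174 CPM), so this contrast is not independent of that between the states.

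In it Gas6 stood at 140, 145, 144 and 101 CPM against 17.8, 18.7, 25.1 and 14.7 CPM, a log2 fold change of 2.69 (± 0.18 SE, adjusted p = 1.37e-08). Cd36 followed at 2.48 (SE 0.22, adjusted p = 2.84e-07), Stab1 at 1.81 (SE 0.15, adjusted p = 1.19e-07) and Mrc1 at 1.35 (SE 0.11, adjusted p = 1.40e-07). Mertk, with 22.7, 43.5, 16.0 and 36.5 CPM against 10.3, 10.96, 8.14 and 9.96 CPM, was at 1.40 (SE 0.31, adjusted p = 0.00553). Msr1 was at 0.60 (SE 0.14, adjusted p = 0.0110), a call lost without DEP 13 (adjusted p = 0.0665). Axl did not differ beyond its spread (−0.11, SE 0.13, adjusted p = 0.717).

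Cd163 had the largest fitted difference of the other members, on 35 UMIs: 18.9, 9.68, 41.3 and 40.5 CPM in the barcodes with at least 2 Folr2 UMIs, against 2.43, 5.04, 2.55 and 1.28 CPM without Folr2. Every mouse was higher, and both DEP mice lay below both PBS mice in the Folr2 barcodes, a pattern of 5, 2, 18 and 10 UMIs. The log2 fold change without the detection filter was 3.26 (SE 0.43, adjusted p = 5.53e-12), in a fit that called 1.98% of 11604 genes higher. No Timd4 UMI was found in the 127 barcodes, which allows a share of up to 2.36%. Markers of other cell types were also looked at in these barcodes, and their part in the result was not tested. Of 6 T cell markers 3 were at 0 (Cd3e, Cd3d and Lck), with a summed level of 0 to 19.4 CPM per mouse against 12.3 to 18.6 CPM without Folr2. Of 5 endothelial markers 3 were at 0 (Cdh5, Plvap and Emcn), with 0 to 4.84 CPM against 1.46 to 2.07 CPM. Epithelial markers held 15.1, 126, 6.88 and 40.5 CPM against 46.6, 43.5, 18.7 and 118 CPM. Fibroblast markers held 7.57, 0, 6.88 and 28.4 CPM against 8.73, 3.85, 33.9 and 5.24 CPM. Those of B cells held 43.5 to 73.0 against 38.9 to 49.7 CPM, and of plasma cells 48.1 to 60.8 against 49.8 to 59.3 CPM. Neutrophil markers held 0 to 4.84 against 4.74 to 9.45 CPM, and dendritic cell markers 0 to 4.84 against 6.32 to 16.5 CPM.

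**Figure D4:**
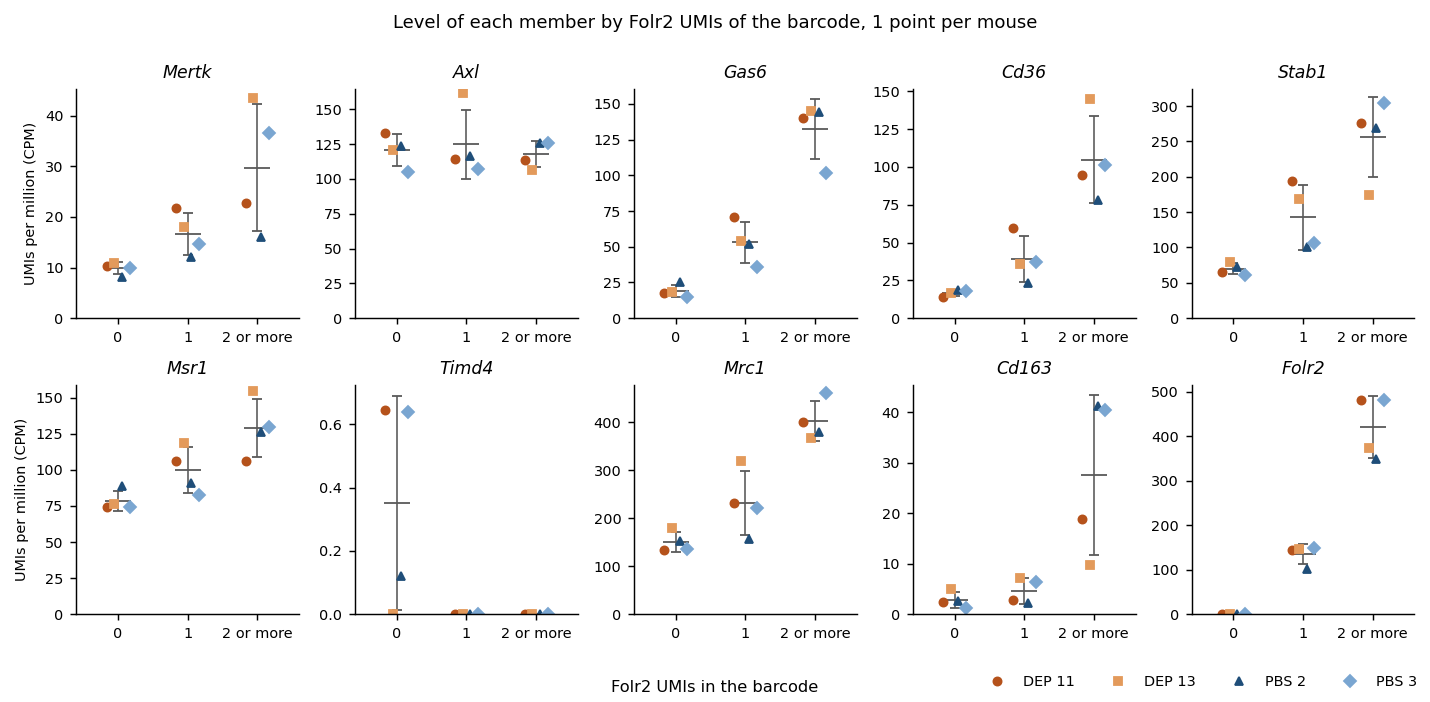
Level of each member in CPM (vertical axis, from 0) in barcodes with 0, 1 and at least 2 Folr2 UMIs. Points are the 4 mice, and the bar and whiskers are their mean ± SD. Gas6, Cd36, Stab1 and Mrc1 climb with Folr2 while Axl stays level, and the Folr2 panel shows the values that made the classes.

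The mice were then compared by exposure. No member passed the test between DEP and PBS mice. Over all analysed barcodes, 0 of 8 members tested were called by edgeR (0% of 6544 genes, with 167 genes and 0 members at an unadjusted p under 0.05), and DESeq2 called 4 genes and limma voom 0, with 0 members in either. The smallest unadjusted p among members was that of Mertk, 0.264. Mertk stood at 11.4 and 13.2 CPM in the DEP mice and 8.87 and 11.04 CPM in the PBS mice, and Mrc1 at 149 and 200.0 against 163 and 150.5 CPM. Fitted log2 differences of the 8 members lay between −0.06 for Msr1 and 0.29 for Mertk, with SEs of 0.15 to 0.26.

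Within the C1qa state, 0 of 8 members were called by each of the 3 tools (0% of 7232 genes by edgeR, with 230 genes and 0 members at an unadjusted p under 0.05, 1 gene by DESeq2 and 0 by limma voom). Mertk had the largest difference, with 17.7 and 21.7 CPM in the DEP mice against 12.4 and 13.9 CPM in the PBS mice. The arms did not overlap, but the log2 fold change of 0.57 (± 0.30 SE, adjusted p = 0.9998) did not pass. Gas6 (41.9 and 52.3 against 53.8 and 33.5 CPM), Cd36 (26.0 and 41.0 against 23.5 and 42.3 CPM) and Folr2 (41.6 and 67.6 against 40.9 and 46.2 CPM) overlapped between the arms.

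In the Ly6c2 state 4 members passed the filter (Axl, Stab1, Msr1 and Mrc1) and 0 were called by edgeR (0% of 5912 genes, with 206 genes and 0 members at an unadjusted p under 0.05), by DESeq2 or by limma voom. Folr2 and Mertk were below the filter there, with 4.01 and 6.64 CPM of Folr2 in the DEP mice against 8.80 and 15.9 CPM in the PBS mice, and 2.67 and 0 CPM of Mertk against 5.45 and 7.02 CPM. Both genes were lower in both DEP mice, on 6 and 5 against 21 and 34 UMIs of Folr2 and 4 and 0 against 13 and 15 UMIs of Mertk, at levels within or below the lymphoid range.

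Whether the exposure difference itself changed between the states was tested as an interaction, and 0 of 8 members were called by edgeR, DESeq2 or limma voom, where edgeR called 24 genes higher (0.36%) and 10 lower (0.15%) of 6671, 0.51% in either direction. DESeq2 gave an adjusted p for 1239 of these genes only, so a member it did not call may have had none. Mertk (2.32, SE 0.72, unadjusted p = 0.00615, adjusted p = 0.419) and Folr2 (1.52, SE 0.45, unadjusted p = 0.00431, adjusted p = 0.351) were the 2 members at an unadjusted p under 0.05, beside 453 genes. The Ly6c2-state counts behind both are the few UMIs given above, and the Mertk value was 7.47 without DEP 11 and 1.65 without DEP 13, the mouse with no Mertk UMI in that state.

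Among the genes of the pathway lists 3 were called in this interaction, all from the 9 tested resident macrophage genes (2 higher and 1 lower, beside 0.36% and 0.15% of all genes), and 0 from the other lists. Pf4, a chemokine gene, had 142 and 169 CPM in the Ly6c2 state of the DEP mice against 282 and 383 CPM in PBS, and 1151 and 1274 against 1037 and 1266 CPM in the C1qa state (interaction 1.19, SE 0.10, edgeR adjusted p = 7.93e-05). The mice were apart in the Ly6c2 state and overlapped in the C1qa state, and the lymphoid barcodes held 220.4 to 461 CPM. Selenop, which codes for a selenium carrier, had 830.0 and 771 against 867 and 1020.3 CPM in the Ly6c2 state and 2257 and 2724 against 1949 and 2063 CPM in the C1qa state (0.54, SE 0.10, adjusted p = 0.0283). F13a1, the transglutaminase gene, had 238 and 272 against 249.8 and 203 CPM in the Ly6c2 state and 31.4 and 41.0 against 60.3 and 64.9 CPM in the C1qa state (−0.95, SE 0.19, adjusted p = 0.0399). All 3 calls were lost with barcodes thinned to 1000 UMIs (adjusted p of 0.636, 1.0 and 0.991), where 0 of 1973 genes were called by edgeR and 105 had an unadjusted p under 0.05. Those of Selenop and F13a1 were also lost by DESeq2 (0.100 for each) and without PBS 3 (0.133 and 0.139), that of Selenop with higher state limits (0.213) and without DEP 13 (0.0633) or PBS 2 (0.0831), and that of F13a1 without DEP 11 (0.0895). Within a state 0 genes of these lists were called by exposure, the smallest adjusted p for these 3 being 0.0611, for Pf4 in the Ly6c2 state.

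**Figure D5:**
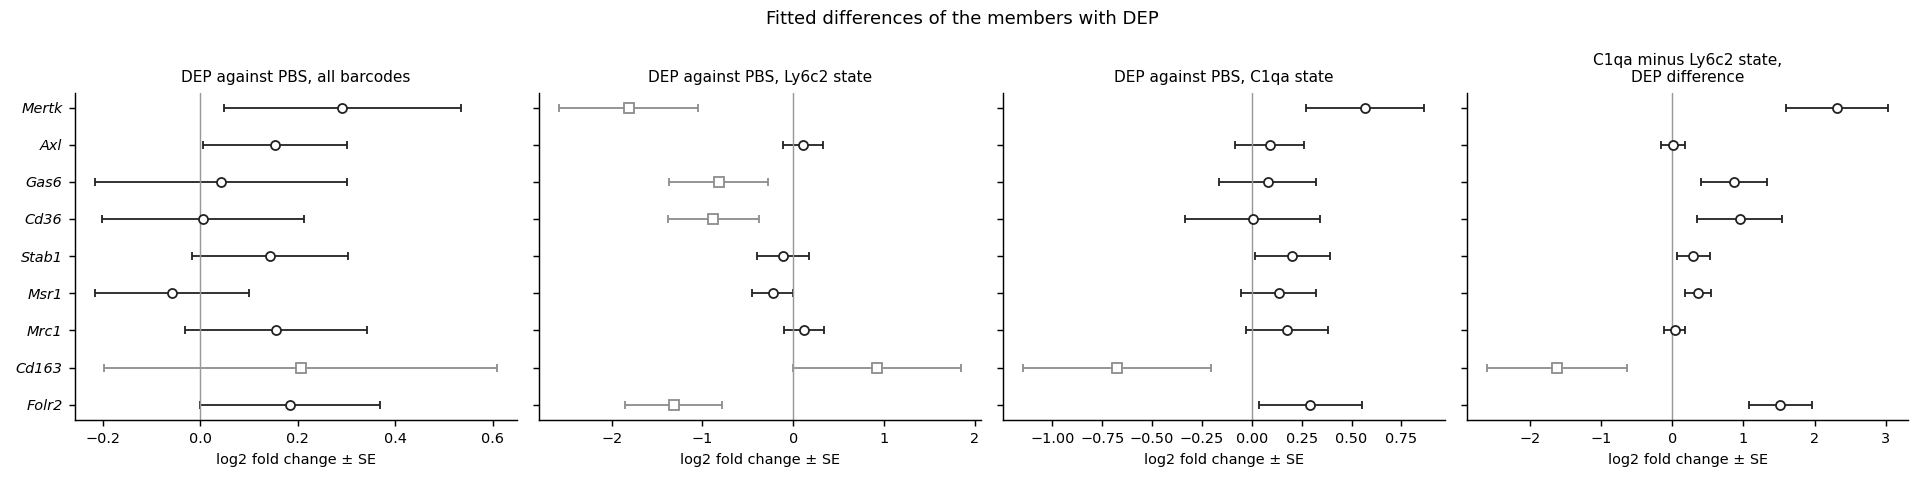
Fitted log2 fold change ± SE of each member between DEP and PBS mice (horizontal axis) over all barcodes, in the Ly6c2 state, in the C1qa state, and the difference of the state effects. Open symbols did not pass an FDR of 5%, and grey squares are values without the detection filter. No symbol is filled, and Mertk lies farthest from 0 in the last panel, at 2.32.

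The share of Folr2 barcodes overlapped between the arms. Barcodes with at least 2 Folr2 UMIs made up 2.79% of DEP 11 (exact 95% interval 1.93 to 3.90%), 3.49% of DEP 13 (2.20 to 5.23%), 3.19% of PBS 2 (2.29 to 4.32%) and 2.13% of PBS 3 (1.46 to 2.99%). The means were 3.14% ± 0.49 (SD, n = 2) and 2.66% ± 0.75, with an exact two-sided permutation p of 0.667, where 2 against 2 mice allow no p below 0.33. The Ly6c2 state held 26.2% and 23.3% of the barcodes of the DEP mice and 30.5% and 28.8% of those of the PBS mice, a difference of −4.86 percentage points, DEP minus PBS (exact permutation p = 0.33, the smallest possible). With every barcode thinned to 1000 UMIs the arms overlapped, at 14.1% and 10.8% against 14.8% and 12.2%, a difference of −1.04 points (exact permutation p = 0.667). The C1qa state held 31.6% and 26.8% against 32.5% and 21.4% (exact permutation p = 1.0). With states cut at the median the C1qa state held 36.2% and 43.9% against 33.4% and 32.3%, without overlap, a difference of 7.15 points in place of 2.20 (exact permutation p = 0.33, the smallest 2 against 2 mice allow, with this limit for the share chosen after seeing the data). Barcodes over both medians were fewer by about as much (13.04% and 7.77% against 20.4% and 14.4%, −6.99 points, exact permutation p = 0.33), and all barcodes over the C1qa median made up 49.2% and 51.7% against 53.8% and 46.7%, which overlap. Since 59.0% of the analysed barcodes had no Ly6c2 UMI, over the Ly6c2 median means with any Ly6c2 UMI, which depends on depth. The part of depth in these shares was not tested. A summed level cannot tell fewer cells of a kind from less RNA per cell.

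Genes of the wider pathway went both ways between the states. Of 18 other uptake receptors and bridging molecules, 10 were tested between the states, 4 were higher and 4 lower in the C1qa state (median log2 fold change −0.13). All lists of this comparison are to be read beside 17.6% of all genes higher and 19.4% lower. The integrin chains that pair to bind the bridge Mfge8, Itgb5 (1.69, adjusted p = 4.60e-09) and Itgav (1.25, adjusted p = 5.53e-06), were higher, and Thbs1 (−1.37, adjusted p = 1.68e-07), a bridging thrombospondin, and Anxa1 (−1.07, adjusted p = 2.06e-07), a resolving annexin, were lower. Of 17 other scavenger receptors 5 were tested, 4 higher and 1 lower: Cxcl16, a scavenger receptor and chemokine (1.69, adjusted p = 2.23e-09), Cd93 (0.64, adjusted p = 9.41e-05) and Scarb2 (0.60, adjusted p = 0.000353) were higher, and Scarb1, the receptor of high-density lipoprotein (−0.93, adjusted p = 1.22e-05), was lower.

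The genes that handle the meal were mixed, beside the same 17.6% and 19.4% of all genes. Of 19 genes of engulfment and digestion 14 were tested, with 6 higher and 2 lower, led by the cholesterol exporter Abca1 (1.84, adjusted p = 4.14e-07), the acid lipase Lipa (0.52, adjusted p = 0.000343) and Dnase2a (0.56, adjusted p = 0.000353), the latter pair no longer called with barcodes thinned to 1000 UMIs (Lipa 0.45, adjusted p = 0.248, and Dnase2a 0.21, adjusted p = 0.651), while Abca7 was lower (−0.84, adjusted p = 0.00721, and 0.0851 without the mouse block). Of 9 genes that sense or restrain uptake 8 were tested, 6 higher and 2 lower, led by the find-me receptors Cx3cr1 (0.98, adjusted p = 1.20e-08), Gpr34 (1.83, adjusted p = 1.55e-08), P2ry6 (0.90, adjusted p = 4.03e-07) and P2ry12 (1.75, adjusted p = 7.35e-07). Of the 4 proteases that can shed such receptors 1 passed, Adam9 (0.53, adjusted p = 0.0449), and Adam17, which releases Mertk, did not (0.30, adjusted p = 0.0593). These protease calls depend on the settings: Adam9 missed the threshold by DESeq2 (adjusted p = 0.177), limma voom (0.0552) and without DEP 11 (0.253), DEP 13 (0.111) or PBS 3 (0.0632). Adam17 passed with states cut at the median (0.0107), with higher state limits (0.0321), under the study's filter (0.0417) and with lymphoid barcodes kept (0.0424). Adam8 was at −0.57 (adjusted p = 0.0576) with the limits used here. It passed with states cut at the median (−0.81, 0.00641) and in several other settings, among them higher state limits (−0.79, 0.0198) and without the deepest 5% (−0.63, 0.0224). Of 6 genes of folate and haem handling 2 were tested and both were higher, Blvrb (0.93, adjusted p = 1.32e-07) and Hmox1 (0.22, adjusted p = 0.0182), a call lost by DESeq2 (adjusted p = 0.161), without the mouse block (0.725) and without DEP 11 (0.0756), PBS 2 (0.0528) or PBS 3 (0.0564).

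Against Folr2 within the C1qa state the calls among these genes were few and moved with the settings. The smallest adjusted p was 0.233 among the 15 engulfment genes tested (Abca1, 0.52), 0.231 among the 8 sensing genes (Gpr34, 0.37) and 0.253 among the 4 proteases (Adam9, 0.58). The endocytic receptor Lrp1 was higher (0.80, adjusted p = 0.00207), and Havcr2, which codes for TIM-3 (−0.86, adjusted p = 0.0273), Cxcl16 (−0.32, adjusted p = 0.000505) and the haem oxygenase gene Hmox1 (−0.46, adjusted p = 0.00315) were lower. All 4 calls were lost without the mouse block (adjusted p of 0.0781, 0.447, 0.537 and 0.949 in that order), that of Havcr2 also by DESeq2 (0.299), without the deepest 5% (0.128), with states cut at the median (0.0795) and without DEP 11 (0.156), PBS 2 (0.467) or PBS 3 (0.0565), and that of Hmox1 also by DESeq2 (0.0734), without PBS 3 (0.0752) and with at least 2 Folr2 UMIs against 0 (−0.30, adjusted p = 0.361). Other genes passed only under alternatives: Blvrb was higher under 8 of them (0.31 to 0.42, adjusted p of 0.00361 to 0.0479), Cd93 higher under 4 (0.37 to 0.43, 0.0403 to 0.0493) and Cd300a lower under 4 (−0.35 to −0.33, 0.0112 to 0.0249), while Abca1 passed without PBS 2 (0.83, 0.0341) and Gpr34 with states cut at the median (0.46, 0.0490). Anxa1, lower in the C1qa state, was higher in its Folr2 barcodes from 2000 UMIs (0.49, edgeR adjusted p = 0.0198). The list of resident macrophage genes went with Folr2, with 6 of 9 tested higher and 0 lower, beside 0.788% and 1.56% of all genes: Pf4 (1.38, adjusted p = 2.40e-16), Cbr2 (2.70, adjusted p = 2.72e-09), Igf1 (1.71, adjusted p = 8.30e-08) and F13a1 (1.67, adjusted p = 1.57e-07) led it, and Igf1 missed the threshold without the mouse block (adjusted p = 0.0827). This list was chosen with earlier results of these data known, so its count is a description and no support. Between the states 7 of those 9 were higher and 2 lower, beside 17.6% and 19.4% of all genes, with Pf4 at 2.33 (adjusted p = 6.49e-08) and Selenop at 1.39 (adjusted p = 4.34e-08), while F13a1, a monocyte gene too, was lower (−2.20, adjusted p = 3.32e-08), as was Clec10a (−0.79, adjusted p = 0.000103).

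The genes most like each member were looked for over 28 sums (mouse by tercile of Ly6c2 by tercile of C1qa, at least 20 barcodes each) among 4076 genes of at least 20 CPM, by Pearson's r on log2(CPM + 1). The sums share libraries, and the terciles were made from C1qa and Ly6c2, so these are descriptions. Axl was most like Gpr65 (r = 0.96), C1qc and Rgs1, Gas6 like Abhd12 (r = 0.96), Cxcl16 and C1qc, Stab1 like Selenop (r = 0.94), Dab2 and Tgfbr1, and Mrc1 like Dab2 (r = 0.94), Fcgr4 and Maf. Folr2 was most like Abhd12 (r = 0.86), P2ry6 and Cd4, Mertk like Epb41l2 (r = 0.83), Shtn1 and Cd4, and Cd36 like Adamdec1 (r = 0.81), Sec14l1 and Slc29a1. The best match was lower for Msr1 (Dtx3, r = 0.73), Cd163 (Eps15, r = 0.64) and Timd4 (Bet1l, r = 0.53), and Timd4 was at 0 in 22 of the 28 sums.

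Some members share their place with another gene. The methods give Cell Ranger with default settings apart from those of its aligner, and by default it counts reads of this chemistry on the sense strand, so neighbours on the same strand are the ones that matter: Mertk overlaps Gm23172 and Mrc1 holds the microRNA gene Mir511, and part of their counts could belong to these.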

How the data were processed

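Single-cell RNA was measured in 4 libraries, 1 per mouse. In the exposure tests, p-values measure the spread between mice of the same arm. In fits with the mouse as a block they measure the spread of the within-mouse difference over the mice. Both draw on a variance shared across genes. The authors deposited a table of raw UMI counts per gene and barcode, made with Cell Ranger (STAR 2.6.1a, mm10 and R 3.5.1 per the submitters' processing notes). Gene symbols came from GENCODE M21 and matched 28416 of 28692 identifiers, with 276 unmatched. Total counts per library were 4489342 to 10293703 UMIs. Intervals (exact Clopper-Pearson, 95%) and limits from a count of 0 (3 counts of the total) cover counting error only.

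Barcodes of at least 1000 UMIs were kept, those with at least 3 distinct lymphoid markers were set aside, and doublets were not removed (an alternative leaves out the deepest 5%). UMIs were summed per mouse and state, with at least 20 barcodes per sum, and tested with edgeR 4.0.16 (TMM, quasi-likelihood, Benjamini-Hochberg FDR of 5% over all genes tested, R 4.3.3). Within-mouse comparisons had the mouse as a block, and SEs were taken from the fold change and the F statistic. Genes needed over 1 CPM in at least 2 sums and a UMI in at least 5% of barcodes. The edgeR fit was tested on simulated counts for the states, for Folr2 in the C1qa state and for exposure over all barcodes. DESeq2 1.42.0 and limma 3.58.1 (voom) were alternatives, with other filters, barcode limits, state limits and left-out mice. Shares were compared by exact permutation of the 4 mice (6 assignments), and thinning drew 1000 UMIs per barcode with seed 1. Python 3.11.15, numpy 2.4.6, scipy 1.17.1, pandas 2.3.3 and matplotlib 3.10.9 were used.

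The class of at least 2 Folr2 UMIs within the C1qa state left under 20 barcodes in 3 of 4 mice, so at least 1 UMI, planned as its alternative, was used there. From each pathway list the 4 genes of smallest p were named per test, except for a gene that is not reported here, and for likeness the 3 genes of highest r. The 3 list genes given for the interaction, and those that passed under alternatives alone, were chosen after their values were seen. The members and lists were chosen with earlier results of these data known.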

Additional observations from a re-analysis of the deposited data

Results flagged for a closer look

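The exposure difference of 3 resident macrophage genes differed between the states by the interaction test (edgeR). DEP minus PBS was higher in the C1qa than in the Ly6c2 state by 1.19 on the log2 scale for Pf4 and by 0.54 for Selenop, and differed by −0.95 for F13a1. The values with 1 mouse left out ran from 1.11 to 1.25 for Pf4, 0.38 to 0.74 for Selenop and −1.19 to −0.77 for F13a1. The calls were lost with barcodes thinned to 1000 UMIs, where Pf4 stood at 0.81, Selenop at 0.0039 and F13a1 at −0.57, and the cause was not tested.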

How the results depend on the processing

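Between the states and by Folr2, 366 refits of single members kept the direction and the side of the threshold, 4 passed it (Msr1 and Axl), 2 no longer did (Msr1 and Mrc1) and 0 reversed. Of the refits of named list genes, 859 kept both, 31 passed the threshold, 34 no longer did and 4 reversed, and in the interaction 40 kept both and 11 no longer passed. Thinning every barcode to 1000 UMIs left 4 members to test between the states, of which 3 were called in place of 7. No paired analysis was possible because the DEP and PBS mice share no replicate numbers. Leaving out 1 mouse in turn kept 7 members called between the states and 4 by Folr2 in the C1qa state, gave 5 to 6 over all barcodes, and kept 0 in each exposure test, where a lone mouse in an arm is assumed to vary like the others. Over all genes, the calls between the states (1176 higher and 1296 lower) were 721 and 862 by DESeq2, 826 and 808 without the mouse block and 327 and 320 thinned. By Folr2 in the C1qa state (57 and 113) they were 34 and 37 by DESeq2 (of 3026 genes with an adjusted p), 73 and 222 without the detection filter, 110 and 169 with states cut at the median, 48 and 61 with higher state limits, and 14 and 5 without the mouse block. Over all barcodes (223 and 356) they were 121 and 122 without the mouse block and 230 and 766 without the detection filter. The interaction (24 and 10) gave 9 and 4 by DESeq2 (of 1239 genes with an adjusted p), 61 and 17 without the detection filter, 68 and 19 with no gene filter and 41 and 12 from 500 UMIs. With no gene filter the exposure tests called 31 and 44 genes over all barcodes, 6 and 35 in the Ly6c2 state and 9 and 25 in the C1qa state. Leaving out a mouse gave 20 and 46 genes by exposure in the Ly6c2 state without PBS 2 and 11 and 33 without PBS 3, 4 and 24 in the C1qa state without PBS 2 and 11 and 14 without PBS 3, up to 3 and 13 over all barcodes (without PBS 2), 33 and 67 by Folr2 in the C1qa state without DEP 11 and 45 and 50 without PBS 3, 127 and 259 by Folr2 over all barcodes without DEP 11, and 40 and 22 in the interaction without DEP 11.

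Thinned to 1000 UMIs, Folr2 barcodes were counted from 1 UMI in place of 2, so depth and limit changed together, and the exposure difference in their share was −0.721 percentage points over all barcodes and −1.83 in the C1qa state. In another random draw, that behind the thinned shares of the report, 2.20% and 1.90% of DEP barcodes and 2.07% and 1.46% of PBS barcodes had a Folr2 UMI, so no direction is read from thinned shares. With state limits changed after seeing the data, the share of Folr2 barcodes in the C1qa state turned to −0.363 with states cut at the median, and the share of barcodes over both limits to 0.106 with higher limits. With 1 mouse left out these shares ranged from −0.0494 to 1.01 and from −0.912 to 4.05, and those of the states from −6.34 to −3.39 (Ly6c2), −3.32 to 1.08 (both), −3.04 to 10.6 (neither) and −3.35 to 7.76 (C1qa). The cause was not tested for these or the reversals that follow, all of genes that did not pass. Log2 differences by Folr2 in the C1qa state turned to −1.30 for Nr1h3 and −0.067 for Sirpa with at least 2 Folr2 UMIs in sums of 15 to 30 barcodes, a setting chosen after seeing the data as was the comparison over all barcodes, and to −0.082 for Adam8 without the deepest 5%.

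For DEP against PBS over all barcodes, Cd36 turned to −0.025 by limma voom, −0.0024 without the detection filter, −0.0030 with filterByExpr, −0.014 with no gene filter, −0.00068 from 2000 UMIs and −0.013 without the deepest 5%. In the Ly6c2 state Axl turned to −0.00095 with higher state limits, and Stab1 to 0.029 from 500 UMIs and 0.17 at the median. In the C1qa state Cd36 turned to −0.0031 without the detection filter, −0.017 with no gene filter, −0.052 under the study's filter, −0.017 from 2000 and −0.068 from 500 UMIs, −0.033 with lymphoid barcodes and −0.012 without the deepest 5%, Axl to −0.013 without the deepest 5%, Msr1 to −0.24 thinned and Folr2 to −0.083 at the median. In the interaction, thinning gave −0.35 for Axl, −0.34 for Stab1 and −0.47 for Mrc1, cutting states at the median −0.055 for Axl and −0.019 for Stab1, leaving out the deepest 5% −0.076 for Axl, and Mrc1 was at −0.0036 from 2000 UMIs, −0.023 with lymphoid barcodes and −0.022 with higher state limits.

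With 1 mouse left out, log2 differences that changed sign ranged from −0.47 to 0.12 for Adam10 by Folr2 in the C1qa state. Over all barcodes by exposure they ranged from −0.28 to 0.47 (Gas6), −0.20 to 0.22 (Cd36), −0.15 to 0.035 (Msr1) and −0.11 to 0.38 (Mrc1), in the Ly6c2 state from −0.25 to 0.053 (Stab1) and −0.078 to 0.32 (Mrc1), in the C1qa state from −0.022 to 0.18 (Axl), −0.17 to 0.41 (Gas6), −0.45 to 0.49 (Cd36), −0.13 to 0.45 (Mrc1) and −0.075 to 0.67 (Folr2), and in the interaction from −0.019 to 0.028 (Axl), −0.071 to 1.73 (Cd36) and −0.054 to 0.15 (Mrc1). Not run for too few barcodes or UMIs were the thinned Folr2 comparisons, that over all barcodes without the deepest 5%, and higher Folr2 limits in sums of at least 20 barcodes.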

Other observations

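Some genes of the pathway lists went one way between the states and the other way with Folr2. F13a1, a transglutaminase gene of monocytes and of some resident macrophages, was lower in the C1qa state (log2 fold change −2.20) and higher in its Folr2 barcodes (1.67, edgeR adjusted p = 1.57e-07). Cxcl16 was higher in the C1qa state (1.69) and lower in its Folr2 barcodes (−0.32, adjusted p = 0.000505), a call lost without the mouse block (adjusted p = 0.537). Both comparisons use the C1qa-state barcodes, and no cause was tested.

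The 1614 barcodes under 500 UMIs (median 287.5), which entered no comparison, held Stab1 at 144 CPM (72.5 to 242 CPM per mouse) against 80.4 CPM in the analysed barcodes, and Mrc1 at 155 CPM against 161 CPM.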
